A study of Mus musculus with 10 samples.

Results

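Tet1 and Tet2 encode dioxygenases that oxidise methylated cytosine in DNA, a step on the way to its removal. The occupancy of their loci by the pluripotency factor Nanog and by Sin3a, the scaffold of a histone deacetylase co-repressor complex, was taken from ChIP-seq peak lists of mouse pre-iPSCs. All peaks of 4 lists that overlapped chromosome 10 at 62230000-62400000 (the Tet1 window, 170 kb) or chromosome 3 at 133090000-133240000 (the Tet2 window, 150 kb) were members, in mouse build mm9. They numbered 44 of 110170 peaks, 25 in the Tet1 window and 19 in the Tet2 window. The limits cut through no peak. The outermost Tet1 peaks lay 24.5 and 16.1 kb inside the limits, and the next peaks outside, within 9.5 kb of the upper limit on chromosome 10, had folds of 3.38 to 4.93, 1 in each list.

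The cells were partly reprogrammed cells of strain 129/MF1 made from female neural stem cells. All carried a GFP and puromycin reporter driven by Oct4, grew in serum with LIF, and had been stably transfected with PiggyBac transposon vectors, which use the CAG promoter, and selected with drugs. There were 3 lines. The Sin3a/EV line had received Sin3a and a vector labelled EV, the Nanog/EV line FLAG-tagged Nanog and EV, and the double line FLAG-tagged Nanog together with Sin3a. ChIP with an antibody to Sin3a (Abcam ab3479) was done in the Sin3a/EV and double lines, and with an antibody to FLAG (Sigma F1804) in the Nanog/EV and double lines, in 2 replicates per group. FLAG marks the transgenic Nanog only, whereas the Sin3a antibody can also bind the cells' own Sin3a. Each group is represented by 1 peak list with no value per replicate, so no difference could be set against replicate spread and no p-value between groups is given. The 1 input and 1 IgG sample were not analysed here.

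In embryonic stem cells the Tet1 protein is known as a partner of both Nanog and Sin3a, and Tet1 and Tet2 are both active genes there. The peaks described here show where Nanog and Sin3a lay in windows around the Tet genes, not where the Tet proteins were. No gene annotation of mm9 was used, so sites are numbered along each window and are not assigned to a promoter, exon or intron. In GRCm38 the Tet1 gene spans 82.9 kb, between Ccar1 (12.2 kb away) and Slc25a16 (33.2 kb away), and the Tet2 gene spans 81.5 kb, between Ppa2 (85.4 kb away) and Cxxc4 (691 kb away). Both windows are wider than their gene, so the outer Tet1 sites may belong to a neighbour. The Sin3a summits of Tet1 sites 1 and 8 in the Sin3a/EV line, at 62255131 and 62383430, lie farther apart than the gene is long. They therefore cannot both lie within Tet1. Their spacing is about that between the near ends of Ccar1 and Slc25a16 in GRCm38, but the sites were not placed on these genes.

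The promoter of each gene is shown for its content of CpG, the dinucleotide at which methylation occurs and which Tet proteins act on. The sequences are those of RefSeq for GRCm38.p6, minus strand, from 250 bases before to 50 after the annotated start (Tet1 at chr10:62887275-62887574, Tet2 at chr3:133544341-133544640), and were not placed on the mm9 peaks. Both genes matched, with 1 promoter each, and capitals mark each CpG.

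Tet1: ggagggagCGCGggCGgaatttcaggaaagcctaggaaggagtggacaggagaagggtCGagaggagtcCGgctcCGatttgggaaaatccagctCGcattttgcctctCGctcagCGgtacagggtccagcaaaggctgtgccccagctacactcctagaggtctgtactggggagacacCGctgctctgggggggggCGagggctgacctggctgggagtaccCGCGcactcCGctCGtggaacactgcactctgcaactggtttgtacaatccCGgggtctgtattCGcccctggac

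Tet2: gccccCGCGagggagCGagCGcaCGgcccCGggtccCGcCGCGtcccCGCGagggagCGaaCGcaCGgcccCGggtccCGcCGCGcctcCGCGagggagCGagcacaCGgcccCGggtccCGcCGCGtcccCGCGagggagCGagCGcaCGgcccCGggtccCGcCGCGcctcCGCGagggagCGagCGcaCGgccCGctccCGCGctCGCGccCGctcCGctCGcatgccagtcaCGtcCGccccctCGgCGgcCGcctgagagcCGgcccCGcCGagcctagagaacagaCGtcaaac

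The Tet2 promoter held 57 CpG, more than 99.8% of the 32851 promoters in the table, and the Tet1 promoter 17, more than 68.6% of them. The median promoter held 7. Their GC contents were 81.3% for Tet2 and 61.7% for Tet1, against a median of 52.7%. Within its first 200 bases the Tet2 promoter was repetitive. Of periods from 10 to 100 bases, 84 matched best, with 94.0% of bases identical to those 1 period on. The sequence also shows a shorter repeat within that period, so 84 bases is not the smallest repeat unit. The motif TAATGG, a core that Nanog is known to bind, was searched on both strands and was in neither promoter. Of all promoters, 7.73% held it. The GC box GGGCGG, also searched on both strands, was found 1 time in each, and 35.7% of all promoters held at least 1.

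Both windows were richer in peaks than their lists as a whole. Tet1 held 4 Sin3a peaks in each of the lines tested, 9 FLAG peaks in the Nanog/EV line and 8 in the double line. Tet2 held 2 Sin3a peaks in the Sin3a/EV line and 4 in the double line, and 6 and 7 FLAG peaks. Per Mb, the Tet1 window held 3.31 to 3.52 times the density of the list it was taken from, and the Tet2 window 1.99 to 3.75 times. Such densities were not rare, since 8.80 to 11.6% of windows of 170 kb laid end to end held as many peaks as Tet1, and 9.83 to 21.2% of windows of 150 kb as many as Tet2. Gene-rich windows were not compared apart from the rest.

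The 44 peaks merged into 16 sites by at least 1 shared base, 8 at each locus. Of these, 8 held peaks of both antibodies, 8 held FLAG peaks only, and 0 held Sin3a peaks only. Over the genome, 37.2% of 45707 merged regions held both antibodies, 57.5% FLAG only and 5.27% Sin3a only. All 4 lists had a peak at Tet1 sites 1, 6 and 8 and at Tet2 site 7, which is 4 of 16 sites against 25.7% of all regions. The count of 0 sites with Sin3a alone is near the small share of such regions in the genome.

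**Figure D1:**
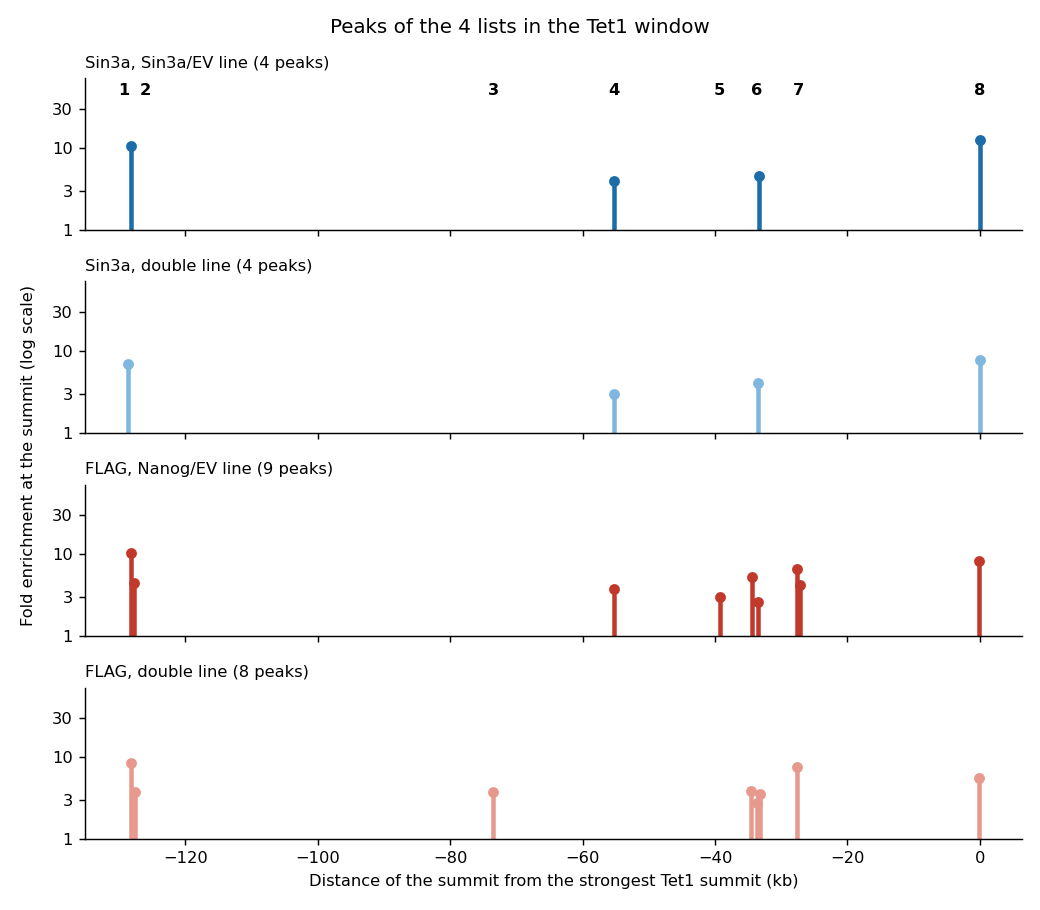
Fold enrichment at the summit (vertical axis, log scale) of the 25 Tet1 peaks in the 4 lists, against the distance of each summit in kb from the Sin3a summit of site 8 in the Sin3a/EV line. Numbers at the top are the sites; the highest Sin3a folds, 12.4 and 10.4, stood at sites 8 and 1 in the Sin3a/EV line.

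In the Tet1 window the highest Sin3a folds in both lines, and the highest FLAG folds in the Nanog/EV line, lay at the outer sites 1 and 8. In the double line, FLAG was highest at site 1 and next at the inner site 7. Site 8 (62383001-62383872) had the highest Sin3a peak of either window. Its Sin3a fold was 12.4 in the Sin3a/EV line and 7.65 in the double line, and its FLAG fold was 8.21 in the Nanog/EV line and 5.58 in the double line. The fold is the authors' ratio of scaled ChIP fragments to the expected background at the summit. By the deposited −log10 q, the Sin3a peak of the Sin3a/EV line ranked 144 of 17168 (−log10 q 70.1), within the top 0.839%. In the double line it ranked 1316 of 18231, and the FLAG peaks ranked 5400 of 38485 and 12051 of 36286. Site 8 was thus far up the Sin3a list of the Sin3a/EV line and less far up the other lists.

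Tet1 site 1 (62254481-62255510) was the strongest site of the Tet1 window for FLAG. Its FLAG folds were 10.1 in the Nanog/EV line (rank 3307) and 8.30 in the double line (rank 5081). Its Sin3a folds were 10.4 in the Sin3a/EV line (rank 773) and 6.93 in the double line (rank 3581). In the Nanog/EV line the FLAG summit lay 44 bp from the Sin3a summit of the Sin3a/EV line. In the double line these summits were 430 bp apart, a distance exceeded by 4.78% of 12359 pairs of overlapping peaks. The FLAG summit had stayed within 8 bp between lines, and the Sin3a summit lay 378 bp from its place in the Sin3a/EV line. Beside it, FLAG-only site 2 (62255572-62255981) had FLAG folds of 4.45 and 3.73.

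Site 6 (62348316-62350453) was the widest of the 16 sites, at 2138 bp, and the most divided. Sin3a formed 1 broad peak there in each line, of 1506 bp in the Sin3a/EV line and 1846 bp in the double line. FLAG formed 2 separate peaks in the Nanog/EV line and 3 in the double line under the same span. The strongest FLAG summits, at 62349004 and 62348890, lay near the lower end of the site, and the Sin3a summits, at 62350105 and 62349871, near its upper end. The Sin3a folds were 4.58 and 4.06. The FLAG folds were 5.15 and 2.62 in the Nanog/EV line, and 3.85, 2.71 and 3.52 in the double line. Both proteins were thus enriched over about the same DNA, with the highest folds at different ends. In the Nanog/EV line the FLAG summits held, in the order above, 37 and 26 fragments. In the double line they held 33, 32 and 30, with 95% intervals for counting error that overlap (23 to 46, 22 to 45, 20 to 43). The FLAG peaks at folds of 2.62 and 2.71 stood on backgrounds 70.8% and 68.0% above the lowest of their lists, the others 15.9%. Weaker FLAG summits lay 23 bp (Nanog/EV line) and 61 bp (double line) from the double line's Sin3a summit.

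Site 4 (62327978-62328449) had a fold below the list median in every list that held it. Its Sin3a folds were 3.97 and 2.96, and its FLAG fold in the Nanog/EV line was 3.68, with no FLAG peak called in the double line. The summits held 41 and 37 Sin3a fragments, against list medians of 46 and 38, and 37 FLAG fragments, against 33. The FLAG background there was 70.8% above the lowest of its list. Site 7 (62355419-62356413) held FLAG only. The main folds there were 6.46 in the Nanog/EV line and 7.41 in the double line, with summits 3 bp apart, and a second Nanog/EV peak had 4.12. FLAG-only sites 3 and 5, each in 1 line, had folds of 3.70 (double line) and 2.94 (Nanog/EV line).

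**Figure D2:**
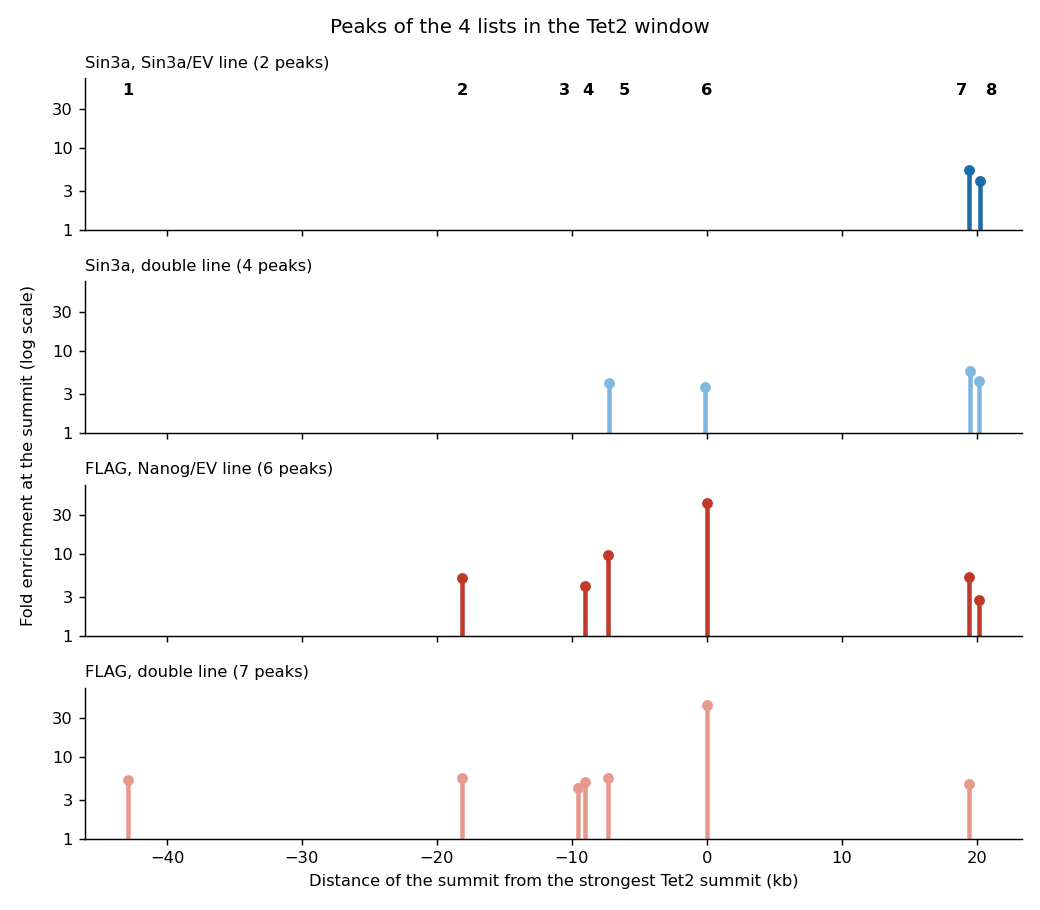
Fold enrichment at the summit (vertical axis, log scale) of the 19 Tet2 peaks in the 4 lists, against the distance of each summit in kb from the FLAG summit of site 6 in the double line. Site 6 stands at folds of 41.5 and 42.8 in the FLAG lists, and its Sin3a peak, called in the double line, at 3.61.

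At Tet2 one FLAG-Nanog site stood above all others, and Sin3a was low there. Site 6 (133186984-133188417) had a FLAG fold of 41.5 in the Nanog/EV line and 42.8 in the double line. In the double line it was the strongest of 36286 FLAG peaks by −log10 q (309) and by fold. In the Nanog/EV line it ranked 5 of 38485 by −log10 q (296) and 3 by fold. The summit held 271 FLAG fragments in the Nanog/EV line (exact Poisson interval 240 to 305) and 336 in the double line (301 to 374), before the authors' scaling. Fragment numbers were recovered from the deposited fold and p of each peak, and all intervals here are 95% intervals that cover counting error only.

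Sin3a at the same Tet2 site had a fold of 3.61 in the double line, with 27 fragments (18 to 39), and no peak was called in the Sin3a/EV line. This Sin3a peak ranked 14941 of 18231, in the lower part of its list, and its summit lay 109 bp from the FLAG summit of that line. Among the strongest FLAG peaks, some overlapped a Sin3a peak and others did not. Of the 100 strongest FLAG peaks of the Nanog/EV line, 60 overlapped a Sin3a peak of the Sin3a/EV line, against 41.8% of that FLAG list. Of the 103 strongest of the double line (ranks to 100, with ties), 41 overlapped one of that line, against 42.2% of that FLAG list. The 44 Sin3a peaks at those 103 had a median fold of 4.70, against 4.63 for their whole list, and 14 had a fold no higher than that at Tet2 site 6. In the Sin3a/EV line, the 63 Sin3a peaks at the 100 strongest FLAG peaks of the Nanog/EV line had a median fold of 5.89, against 4.72 for their whole list.

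**Figure D3:**
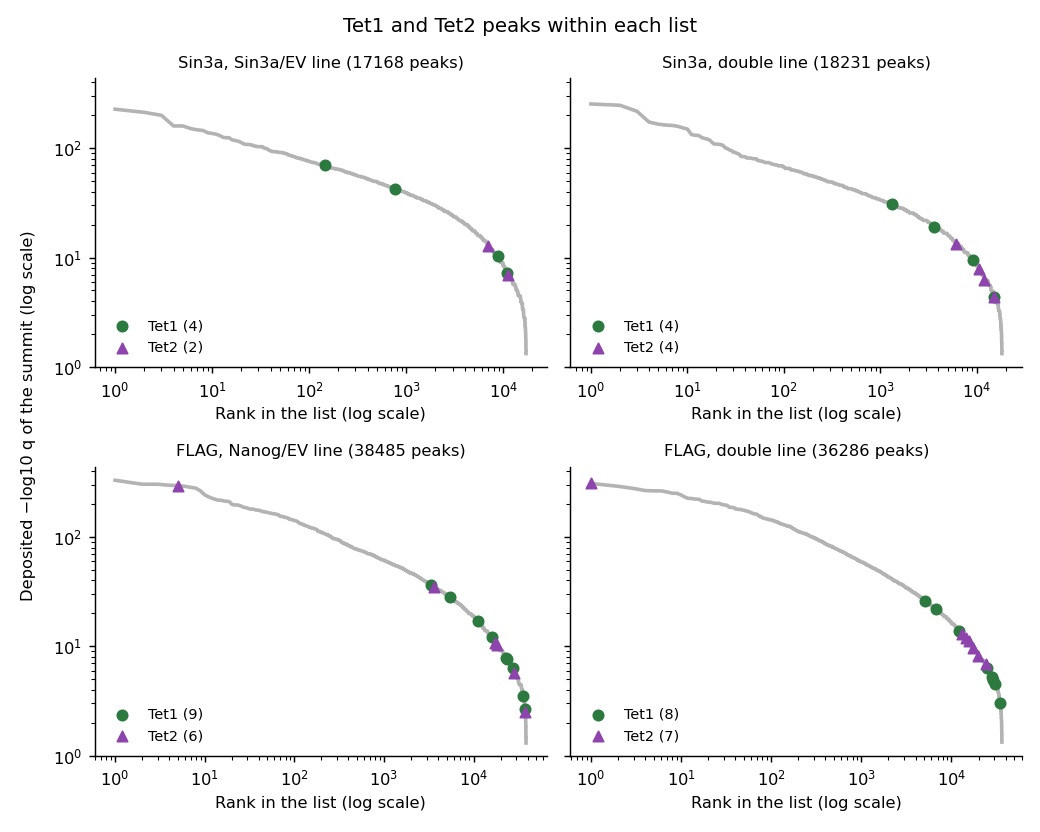
Deposited −log10 q (vertical axis) against rank in the list (horizontal axis), both on log scales, for every peak (grey line) and for the Tet1 (circles) and Tet2 (triangles) peaks. Tet2 site 6 stands at ranks 5 and 1 of the FLAG lists, and Tet1 site 8 at rank 144 of the Sin3a list of the Sin3a/EV line.

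Tet2 site 5 (133180226-133180812), 6.2 kb from site 6, was the next strongest Tet2 site in the Nanog/EV line. Its FLAG fold was 9.79 in the Nanog/EV line (rank 3654) and 5.48 in the double line (rank 14385). Sin3a had a peak there in the double line, with a fold of 3.99 and 30 fragments (20 to 43), and none in the Sin3a/EV line. Sites 5 and 6 were the Tet2 sites with Sin3a called in 1 line only. At the lowest background of the Sin3a/EV line's list, the weakest peak called had 23 fragments. A site without a peak may hold fewer fragments than that, or lie on a higher background, and is not shown to be empty.

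Tet2 site 7 (133206916-133207471) held both proteins in every line tested, at similar folds. Sin3a had 5.40 in the Sin3a/EV line and 5.65 in the double line, and FLAG 5.21 in the Nanog/EV line and 4.62 in the double line. The 4 summits lay within 41 bp of each other, the closest of the 4 sites present in all lists. Site 8 (133207633-133208152), 0.2 kb on, had Sin3a folds of 3.89 and 4.32 and a FLAG fold of 2.75 in the Nanog/EV line, with no FLAG peak called in the double line. These were the strongest Sin3a peaks of the Tet2 window, and they ranked 7038 and 6045 (site 7) in their lists, well below Tet1 sites 1 and 8.

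The remaining Tet2 sites held FLAG only. Site 2 (133169515-133169881) had folds of 5.03 in the Nanog/EV line and 5.53 in the double line, and site 4 (133178622-133179120) had 3.99 and 4.87. Sites 1 and 3 had a FLAG peak in the double line alone, with folds of 5.16 and 4.22.

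**Figure D4:**
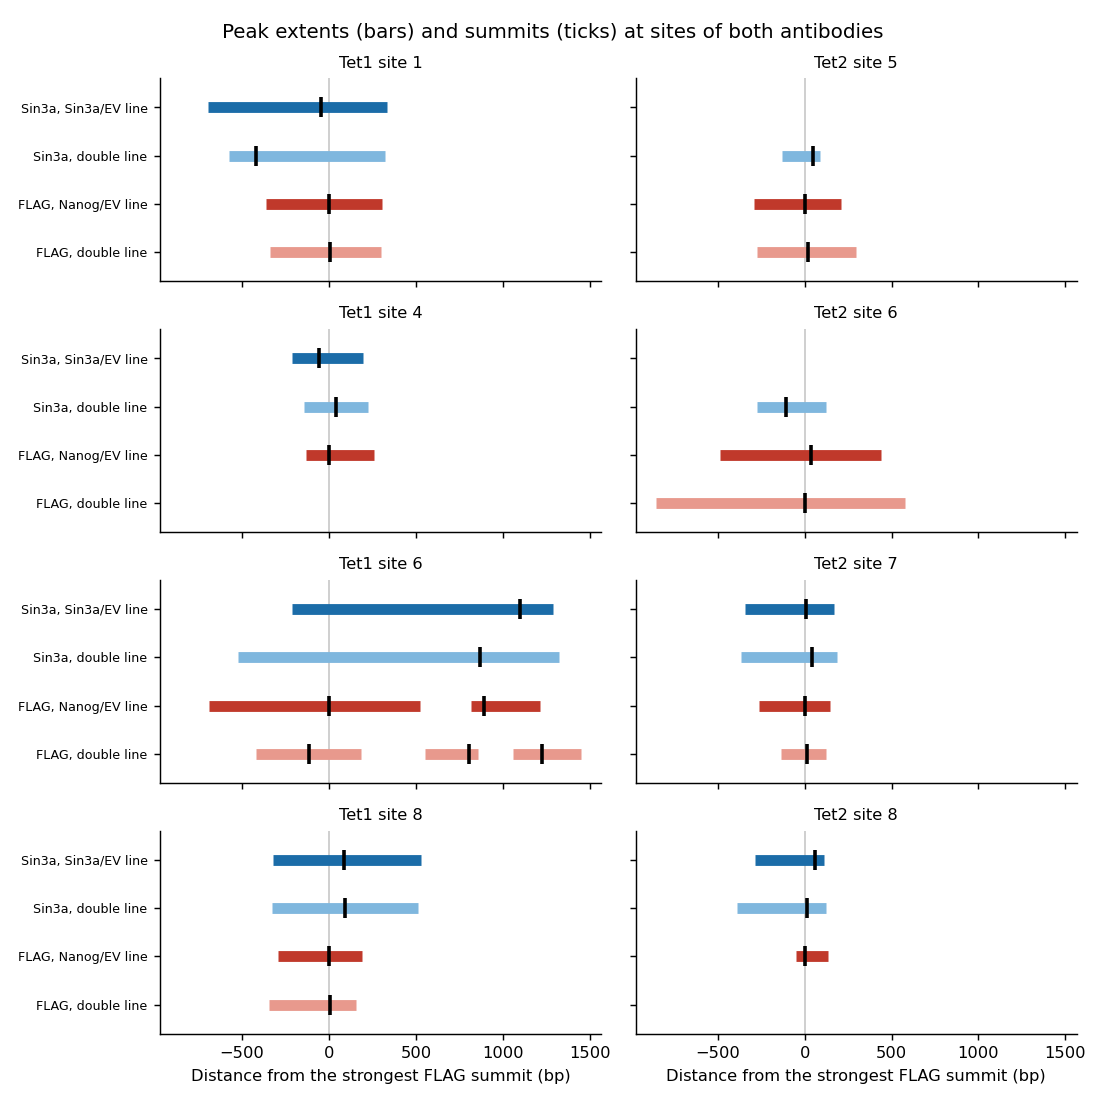
Extent of each peak (bars) and its summit (ticks) in the 4 lists at the 8 sites of both antibodies, as distance in bp from the summit of the strongest FLAG peak of the site. The 4 summits of Tet2 site 7 lie within 41 bp, and the Sin3a summits of Tet1 site 6 lie at the end opposite to the FLAG summits of highest fold.

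Overlap between the antibodies was counted peak by peak. In the Sin3a/EV line, 6 of 6 Sin3a members overlapped a FLAG peak of the Nanog/EV line, against 88.5% of that whole list. In the double line 6 of 8 overlapped a FLAG peak of the same line, against 80.3%. Of the FLAG members, 7 of 15 in the Nanog/EV line overlapped a Sin3a peak of the Sin3a/EV line (41.8% of that list), and 8 of 15 in the double line overlapped a Sin3a peak of the same line (42.2%). These shares were near those of the lists. The 2 Sin3a peaks of the double line without FLAG in that line were those of Tet1 site 4 and Tet2 site 8, where FLAG had been called in the Nanog/EV line. Both lists of the double line came from separate precipitations, so binding of both proteins to 1 DNA molecule was not shown.

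By site, FLAG was called in both lines at 10 of 16 sites and in 1 line at the other 6 (Tet1 sites 3, 4 and 5, and Tet2 sites 1, 3 and 8). Over the genome, 62.5% of regions with FLAG held it in both lines. Sin3a was called in both lines at 6 of its 8 sites, against 70.5% of regions with Sin3a. Counted by peak, of the Sin3a members, 6 of 6 in the Sin3a/EV line and 6 of 8 in the double line had a counterpart in the other line, against 84.2% and 80.4% of the lists. Of the FLAG members, 12 of 15 had one in each line, against 74.2% and 79.7%. These shares were near those of the lists. The FLAG members without a counterpart had folds of 2.75 to 3.68 in the Nanog/EV line and of 3.70 to 5.16 in the double line.

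The strongest Sin3a sites of the Tet1 window, the outer sites 1 and 8, were lower in the double line than in the Sin3a/EV line. Whether either lies within the Tet1 gene was not determined. Sites 1 and 8 were the 2 of 6 Sin3a pairs whose interval lay below a ratio of 1, as did that of 4.59% of all Sin3a pairs (0.833% lay above 1). At site 8 the summit held 140 Sin3a fragments in the Sin3a/EV line (118 to 165) and 78 in the double line (62 to 97), which is 98.0 and 60.2 after the authors' scaling. The ratio was 0.614 (0.459 to 0.816). At site 1 the numbers were 94 (76 to 115) and 53 (40 to 69), a ratio of 0.621 after scaling (0.435 to 0.879). The site 1 summits lay 378 bp apart between lines, against a median of 51 bp over all pairs, so this ratio compares different bases. Among all 12851 pairs of Sin3a peaks that overlapped singly between lines, the median ratio was 0.940, and 1.75% and 1.99% of pairs had lower ratios than sites 8 and 1. By deposited fold the median ratio of all pairs was 0.998, and 1.88% and 3.64% were lower. The lowest background was 5.41 in the Sin3a/EV line's list and 5.05 in that of the double line. Its part in the scaled ratios was not tested. The 781 pairs in the top 5% of the Sin3a/EV line's list had a median scaled ratio of 0.834. Of those, 2.56% and 3.07% were lower than sites 8 and 1. The interval of site 8 lay below that median, and the interval of site 1 included it. These pairs were chosen by rank in the list that gives the denominator, which can by itself lower their ratios. The part of this choice was not tested.

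At the other Sin3a pairs no difference beyond counting error was detectable at this depth. Their ratios were 0.995 at Tet1 site 4, 1.10 at Tet1 site 6, 0.987 at Tet2 site 7 and 1.02 at Tet2 site 8, each with an interval that includes 1. At Tet1 site 6 the summits compared lay 234 bp apart. Whether these 4 ratios differ from those of Tet1 sites 1 and 8 was not tested.

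FLAG differed between lines by more than counting error at 1 of 9 pairs, with an interval below a ratio of 1. Of all FLAG pairs, 5.07% lay below 1 in this way and 4.55% above it. At Tet2 site 5 the summit held 63 FLAG fragments in the Nanog/EV line (48 to 81) and 42 in the double line (30 to 57), a scaled ratio of 0.562 (0.371 to 0.844), and 233 of 25899 FLAG pairs had a lower one. Among the 1782 pairs of like rank, at 5 to 10% of the Nanog/EV line's list, the median was 0.855 and 1.68% were lower. That list gives the denominator, so choosing pairs by rank in it can by itself lower their ratios. At Tet2 site 6 the ratio was 1.04 (0.888 to 1.23), the narrowest interval of the members. At Tet1 site 8 it was 0.683 (0.455 to 1.02). The median of all FLAG pairs was 0.920. Without values per replicate the spread between replicates around any of these ratios is unknown.

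**Figure D5:**
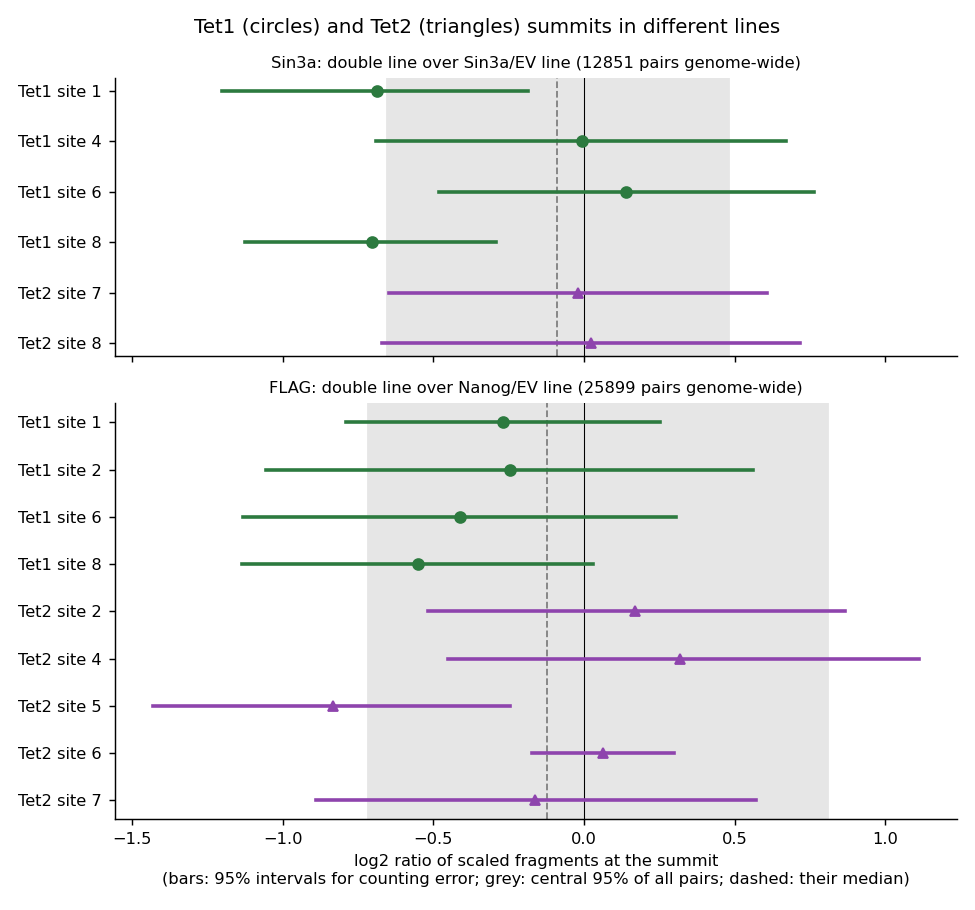
log2 ratio of scaled fragments at the summit in the double line over the single-transgene line (horizontal axis), for the 6 Sin3a and 9 FLAG pairs of the members, with 95% intervals for counting error. The grey band is the central 95% of all 12851 Sin3a or 25899 FLAG pairs and the dashed line their median; Sin3a at Tet1 sites 1 and 8 and FLAG at Tet2 site 5 lie outside the band.

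The background that each fold was set against differed between the loci. At Tet1 it was more than 5% above the lowest of its list for 3 of 4 Sin3a peaks in the Sin3a/EV line and 3 of 4 in the double line, and for 5 of 9 FLAG peaks in the Nanog/EV line and 4 of 8 in the double line. At Tet2 it was so for 1 peak in each list. The shares over the whole lists, in the same order, were 39.8%, 36.0%, 46.3% and 34.3%. At Tet1 site 8 the Sin3a lists had a background 29.4% and 38.7% above their lowest, and at Tet1 site 4 they had 19.8% and 78.3%. At Tet2 sites 5, 6 and 7 it was at most 0.5% above the lowest in each list. A raised background lowers the fold at the same number of fragments: at Tet1 site 4 Sin3a had 28.7 and 28.5 scaled fragments in the Sin3a/EV and double lines, but folds of 3.97 and 2.96. The part of this background in the other Tet1 folds was not tested.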

How the data were processed

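ChIP-seq had been run on 10 samples: 8 ChIP samples, 2 in each of 4 groups, and 1 sample each of input and IgG. Per the submitters' processing notes the genome build was mm9, and FastQC 0.10.1, Bowtie 1.0.0 and SAMtools 0.1.19 were used, with no role stated. Which program called the peaks is not stated in the labels, and neither is any pooling of replicates. Each deposited list gives a score, a fold ratio, a −log10 p and a −log10 q per peak, all the authors' own, as the values and the standard layout show.

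The deposited fold equals scaled fragments plus 1 over the expected background plus 1, and the deposited p a Poisson tail. From these the whole number of fragments was found, with 1 solution for at least 99.5% of peaks in each list and for all 44 members. Scale factors were 0.700 and 0.772 (Sin3a, Sin3a/EV and double lines) and 0.868 and 0.731 (FLAG, Nanog/EV and double lines). Total reads are not given, so depth is known only from fragments. In 5740 simulated peaks, 99.3% had 1 solution, which was the number drawn in 100% of them.

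Overlap meant at least 1 shared base. Ratios carry exact binomial intervals conditional on the sum of fragments. Densities use the span from the first to the last peak of each chromosome. Sites of both antibodies, and the strongest site of each list, were described in full. The windows and comparisons were chosen with earlier results of these data known. Alternatives were a −log10 q of at least 5 or 10, other window limits, other overlap rules and other ranks. Computing used Python 3.11.15 and its packages SciPy 1.17.1, NumPy 2.4.6, Matplotlib 3.10.9 and pandas 2.3.3. Coordinates are 1-based.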

Additional observations from a re-analysis of the deposited data

How the results depend on the processing

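No paired analysis was possible because the replicates of a group share 1 list, and no replicate was left out for that reason. Of 63 alternative values, 48 stayed within set limits and 15 moved. The limits were 1.5 times the main value for counts, densities and shares, the interval for counting error for ratios, and, for ranks, the binomial interval of the rank as a share of its list, which is a convention since ranks have no counting error.

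A stricter −log10 q of at least 10 left 12 of 25 Tet1 peaks and 10 of 19 Tet2 peaks, in 4 of 8 and 5 of 8 sites. Under it 10 Tet1 peaks (17 before) and 2 Tet2 peaks (10 before) overlapped the other antibody, and 10 (22 before) and 8 (14 before) were shared between lines. It leaves fewer peaks by construction, and the Sin3a peaks at Tet2 sites 5 and 6 are among those lost. Requiring summits within 200 bp left 10 of the 17 Tet1 peaks at the other antibody. Ranked by fold in place of −log10 q, the strongest Tet1 peak was at 242 (Sin3a, Sin3a/EV line), 2194 (Sin3a, double line), 2930 (FLAG, Nanog/EV line) and 4513 (FLAG, double line), and the strongest Tet2 Sin3a peak at 6428 and 5736. Of these, the Tet1 Sin3a ranks moved by over 1.5 times, as did that of Tet2 site 6 in the Nanog/EV line (5 to 3). With deposited folds in place of scaled fragments, each ratio between lines stayed within its interval, and those of Sin3a at Tet1 sites 8 and 1 were 0.618 and 0.665. The comparison with peaks of like rank, and that of the strongest 100, 20 or 500 FLAG peaks with Sin3a, were chosen after the data were seen. Among the strongest 20 and 500 FLAG peaks, 45.0% and 66.0% overlapped Sin3a between the EV lines, and 10 of 20 and 197 of 500 in the double line.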
